A study of Rattus norvegicus with 30 samples.

Results

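Heat shock proteins were followed through the growth of the rat testis and in explants kept in culture. The 10 genes were chosen by name: Hspa2, Hspa1l and Hspa4l, which are known as germ-cell chaperones, and Hspa8, Hspa5, Hsph1, Hsp90aa1, Hsp90ab1, Hspb1 and Hspd1, which are known from all tissues or from the stress response. All 10 had a row among the 17322 genes of the deposited table, 9 had values above 0, and the same 9 passed the filter on low values. Testes of Wistar Han rats with no stated genetic change were taken at 8.5, 14.5 or 24.5 days post partum (dpp), or at the later ages of 30.5, 36.5 or 53.5 dpp, with 3 different testes per age except 14.5 dpp, where 2 were used. Explants were cut from 8.5 dpp testes, 6 pieces per testis, and kept at 34 °C on agarose between gas and medium, in αMEM with serum replacement, retinol and vitamin E, for 6 days (D6), 16 days (D16), 22 days (D22) or 28 days (D28). Each of the 3 cultured libraries per time pooled 12 explants, taken from at least 3 males. The study states different rats per replicate in vivo for its histology, and different testes for the libraries. The dead centre of the explants was removed. The study itself left D6 out of its comparison because of its cell makeup. Levels are given in FPKM, fragments scaled to transcript length and to the mapped reads of the library, so that genes can be set side by side. Tests used limma on log2(FPKM + 1). A gene was called when its p-value, adjusted over all genes tested, was at most 0.05 and its group medians differed by at least 2-fold, and only called genes are said to have risen or fallen.

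Heat shock proteins are chaperones, proteins that hold, fold or sort other proteins. HSP70 proteins bind short stretches of unfolded protein in turns driven by ATP, J proteins bring them their clients, and HSP110 proteins reload them with ATP. HSP90 proteins finish the folding of receptors and kinases, chaperonins enclose a whole chain, and small heat shock proteins hold chains that have begun to clump. In the testis, spermatocytes and spermatids make their own chaperone forms, and HSPA2 is known from the synaptonemal complex of spermatocytes. Heat or unfolded protein raises the inducible forms through heat shock factors, which bind repeated GAA units in the promoter.

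Facts about the libraries bear on these results. Marker sums in FPKM for spermatocytes (Sycp1, Sycp3, Piwil1, Ldhc and Pgk2) lay between 3.17 and 42.8 at 8.5 and 14.5 dpp, between 878 and 1909 from 24.5 dpp on, and between 4.36 and 22.9 in all explants. The sum of the 5 spermatid markers reached between 11997 and 17391 at 53.5 dpp and did not exceed 11.3 in explants, where Prm1 was listed at 0 in every library. The sum of the 5 Sertoli cell markers was between 850 and 879 at 14.5 dpp, between 65.8 and 73.0 at 53.5 dpp, and between 651 and 977 in explants. The 2 testes of 14.5 dpp differed in the spermatocyte sum, which was 8.19 in replicate 1 and 42.8 in replicate 2. Over all genes, the median difference from 8.5 to 53.5 dpp was -0.74 on the log2 scale. In tissue of mixed cells, fewer cells of a type and less RNA per cell cannot be told apart.

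Hspa2, the HSP70 of spermatocytes, had the largest mean level of the 10 genes from 24.5 dpp on. Its level was 14.3, 13.8 and 12.7 FPKM in the 8.5 dpp testes and 23.0 and 26.8 FPKM in those of 14.5 dpp. It was 1050, 1121 and 752 FPKM at 24.5 dpp, 1726, 1830 and 1697 FPKM at 30.5 dpp, 1644, 1579 and 1567 FPKM at 36.5 dpp and 1378, 1236 and 1260 FPKM at 53.5 dpp. No testis of 24.5 dpp or older came near the younger ones, and replicate 3 was the lowest of the 24.5 dpp testes. At 30.5 dpp, Hspa2 held rank 2 by mean FPKM among the 14015 genes with a value above 0, against rank 4926 at 8.5 dpp. From 14.5 to 24.5 dpp Hspa2 rose 42.2-fold by group medians, with a difference of 5.22 ± 0.14 (SE) on the log2 scale and an adjusted p of 1.13e-11. From 30.5 to 36.5 dpp its difference was -0.13 ± 0.13, and from 36.5 to 53.5 dpp -0.31 ± 0.13 (adjusted p of 0.434 and 0.0663). Under quantile normalization the latter was -1.07 and was called lower, with a ratio of 0.450 (adjusted p of 3.11e-04).

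Hspa4l, an HSP110 known from germ cells, made its largest step between the same ages as Hspa2, 14.5 and 24.5 dpp, at a lower level. It was 0.835, 0.706 and 0.831 FPKM at 8.5 dpp, 1.90 and 4.03 FPKM at 14.5 dpp, and 67.2, 68.3 and 42.1 FPKM at 24.5 dpp. It then lay between 85.8 and 103 FPKM at 30.5 dpp, between 96.2 and 108 FPKM at 36.5 dpp, and between 138 and 168 FPKM at 53.5 dpp. The lowest testis of 24.5 dpp was again replicate 3. From 8.5 to 14.5 dpp Hspa2 stood at 1.81-fold and was not called, while Hspa4l rose 3.57-fold (adjusted p of 0.00134). From 14.5 to 24.5 dpp Hspa4l rose 22.7-fold (adjusted p of 2.81e-09). Its later steps did not reach 2-fold.

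Hspa1l, the HSP70 of spermatids, rose last of the germ-cell forms. It stayed between 0.811 and 1.3 FPKM up to 24.5 dpp. At 30.5 dpp the testes held 9.53, 42.6 and 19.6 FPKM, at 36.5 dpp 155, 140 and 116 FPKM, and at 53.5 dpp 483, 482 and 289 FPKM. No testis of one of these ages overlapped the next. The rises were 22.6-fold from 24.5 to 30.5 dpp, 7.11-fold from 30.5 to 36.5 dpp and 3.45-fold from 36.5 to 53.5 dpp, with adjusted p of 1.58e-06, 1.83e-04 and 0.00452. By mean FPKM, Hspa1l moved from rank 9995 at 8.5 dpp to rank 120 at 53.5 dpp. Its gene model overlaps that of Hspa1a in the RefSeq table, so the authors' counting could have split reads between them. Hspa1a itself, a stress-inducible HSP70, stayed between 0.566 and 3.14 FPKM at every age.

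**Figure D1:**
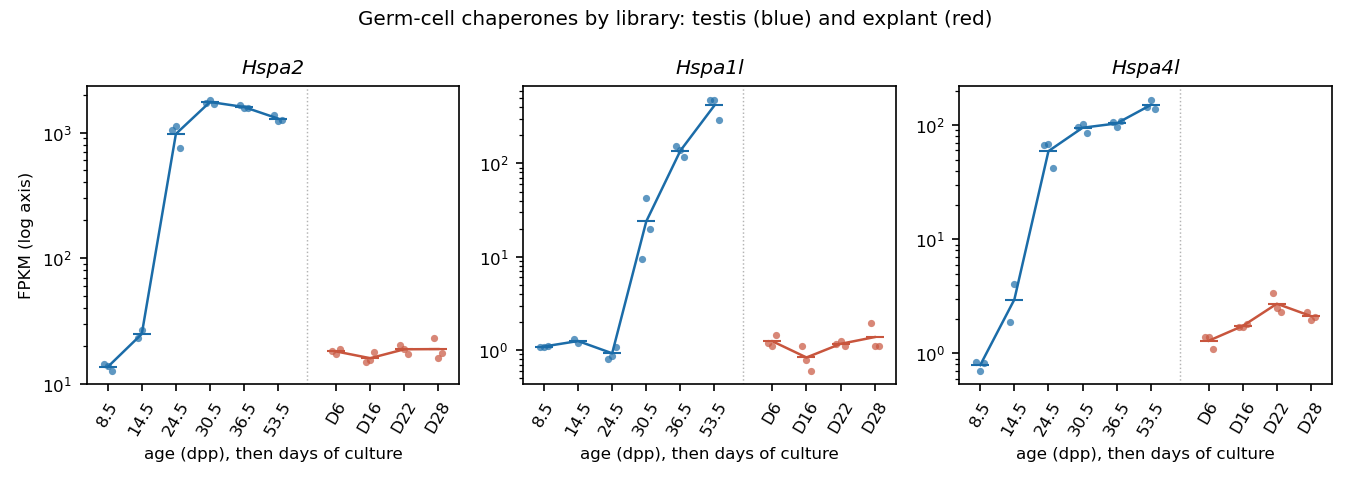
Levels of Hspa2, Hspa1l and Hspa4l in FPKM on a log axis, against testis age in dpp and days of culture. Points are libraries, and lines join the means of testes (blue) and explants (red). In testes, Hspa2 is at 752 FPKM or more in every library from 24.5 dpp on and Hspa1l 9.53 FPKM from 30.5 dpp on, while no explant exceeds 23.0 FPKM for Hspa2 or 1.93 FPKM for Hspa1l.

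The promoters of the germ-cell forms are shown because these genes moved most. Each is the 250 bases before the gene's start in the RefSeq annotation of GRCr8, read 5′ to 3′ on the gene's strand. Hspa2 lies at chr6:100864192-100864441 (plus strand), Hspa1l at chr20:3860224-3860473 (minus strand) and Hspa4l at chr2:125668096-125668345 (plus strand). Capitals mark heat shock units, which are GAANNTTC or TTCNNGAA for 2 units. For 3 units, GAANNTTC is followed by NNGAA, or TTCNNGAA by NNTTC.
Hspa2: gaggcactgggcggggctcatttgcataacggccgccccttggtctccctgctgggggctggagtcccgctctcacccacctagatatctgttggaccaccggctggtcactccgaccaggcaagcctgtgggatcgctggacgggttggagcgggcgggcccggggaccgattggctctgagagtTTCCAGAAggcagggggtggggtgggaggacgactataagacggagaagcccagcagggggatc
Hspa1l: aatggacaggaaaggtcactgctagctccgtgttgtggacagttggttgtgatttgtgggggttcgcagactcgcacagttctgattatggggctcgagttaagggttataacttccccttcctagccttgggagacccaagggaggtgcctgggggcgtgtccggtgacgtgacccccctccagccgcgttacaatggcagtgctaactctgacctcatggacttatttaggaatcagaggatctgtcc
Hspa4l: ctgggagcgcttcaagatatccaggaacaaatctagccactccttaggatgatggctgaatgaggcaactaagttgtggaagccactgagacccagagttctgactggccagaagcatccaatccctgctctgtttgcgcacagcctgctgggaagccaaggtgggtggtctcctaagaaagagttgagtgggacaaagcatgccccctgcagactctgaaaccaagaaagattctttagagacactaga
Hspa2 held 1 match to the shorter form, from 64 to 57 bases before its start, and the other two held none. Of 33469 promoters of the same length, 13.5% held the shorter form on either strand and 0.663% the longer one, and each longer match contains shorter ones. A match here is letters only, and no binding was measured.

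Hspa8, the HSP70 that every cell makes, ran the other way. It was 69.8, 69.5 and 73.2 FPKM at 8.5 dpp, 71.5 and 77.3 FPKM at 14.5 dpp, and 46.0, 45.2 and 67.5 FPKM at 24.5 dpp. It fell to 20.4, 16.8 and 22.7 FPKM at 30.5 dpp and was 14.7, 13.7 and 14.1 FPKM at 36.5 dpp and 8.04, 7.07 and 7.96 FPKM at 53.5 dpp. From 24.5 dpp on, no testis of one age overlapped the next, and replicate 3 of 24.5 dpp was still close to the younger testes. The largest step was from 24.5 to 30.5 dpp, with a ratio of medians of 0.443 and a log2 difference of -1.35 ± 0.14 (adjusted p of 1.59e-06). The RefSeq table holds 33 pseudogenes of Hspa8, 23 of Hsp90ab1 and 20 of Hspd1, so the authors' treatment of reads that match several places could shift the levels of all 3 genes.

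Hsp90ab1, the HSP90 of all cells, and Hspd1, the chaperonin of mitochondria, declined over the same ages. Hsp90ab1 held 1159, 1042 and 1124 FPKM at 8.5 dpp, where it ranked 15 by mean FPKM. It was 1138 and 1044 FPKM at 14.5 dpp, 539, 498 and 724 FPKM at 24.5 dpp, 265, 210 and 276 FPKM at 30.5 dpp, and between 93.0 and 107 FPKM at 53.5 dpp. Its ratio of medians was 0.494 from 14.5 to 24.5 dpp and 0.492 from 24.5 to 30.5 dpp, both just past 2-fold. Without replicate 1 of 14.5 dpp, or without replicate 1 or 2 of 24.5 dpp, the earlier ratio was 0.516, 0.560 or 0.579. Without replicate 3 of 24.5 dpp or replicate 2 of 30.5 dpp, the later ratio was 0.511 or 0.502, all short of 2-fold. Hspd1 lay between 67.5 and 92.3 FPKM at 8.5 and 14.5 dpp, between 45.6 and 55.0 FPKM at 24.5 dpp and between 17.8 and 23.0 FPKM at 30.5 dpp, and ended at 5.11, 8.18 and 7.78 FPKM. Its largest step was from 24.5 to 30.5 dpp, with a ratio of 0.448 (adjusted p of 2.06e-05). Hspd1 shares its locus with Hspe1, which encodes its partner chaperonin 10. Hspe1 spread from 4.56 to 65.9 FPKM among the 3 testes of 8.5 dpp alone, and how reads were divided between the neighbours was not tested.

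Hspa8 and Hspd1 are printed next for the heat shock units in their promoters. The windows are chr8:50080264-50080513 (plus strand) and chr9:64084038-64084287 (minus strand) of GRCr8, and capitals have the same meaning.
Hspa8: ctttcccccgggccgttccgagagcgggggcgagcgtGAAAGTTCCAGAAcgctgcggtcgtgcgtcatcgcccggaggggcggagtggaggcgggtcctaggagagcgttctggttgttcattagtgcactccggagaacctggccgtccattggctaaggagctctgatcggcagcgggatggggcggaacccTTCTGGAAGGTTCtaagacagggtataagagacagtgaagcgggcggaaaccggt
Hspd1: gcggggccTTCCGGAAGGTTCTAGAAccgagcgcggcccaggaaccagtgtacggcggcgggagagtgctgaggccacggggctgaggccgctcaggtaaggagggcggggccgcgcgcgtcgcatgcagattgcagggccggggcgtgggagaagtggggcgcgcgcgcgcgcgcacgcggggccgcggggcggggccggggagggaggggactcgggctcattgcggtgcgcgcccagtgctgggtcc
The 3-unit form matched at 2 places in Hspa8, from 213 to 201 and from 55 to 43 bases before its start. In Hspd1 it matched at 2 overlapping places, between 242 and 225 bases before the start. Hsph1 had 1 such match, from 36 to 24 bases before its start. Among the 9 members with a promoter in the RefSeq table, those 3 held the longer form and 5 held the shorter one, the others being Hspa2 and Hspb1. Hsp90ab1 held neither, but had 1 cyclic AMP response element (TGACGTCA), found in 1.59% of promoters. A promoter of Hsp90aa1 was not used here.

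Hsph1, an HSP110 induced by heat, rose early and then fell. It was 12.6, 10.4 and 9.23 FPKM at 8.5 dpp, 16.7 and 34.7 FPKM at 14.5 dpp, and 30.7, 24.4 and 34.3 FPKM at 24.5 dpp. It was 13.0, 10.2 and 16.4 FPKM at 30.5 dpp, between 8.16 and 9.96 FPKM at 36.5 dpp and between 5.35 and 5.75 FPKM at 53.5 dpp. The rise to 14.5 dpp was 2.48-fold (adjusted p of 0.00302), but without replicate 2 of 14.5 dpp it was 1.61-fold with an adjusted p of 0.0841, on the 1 testis left. The fall from 24.5 to 30.5 dpp had a ratio of 0.423 (adjusted p of 4.31e-04).

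Hspb1, a small heat shock protein known for guarding actin, was the only member with a dip. It was 18.5, 18.1 and 13.5 FPKM at 8.5 dpp and 12.9 and 10.6 FPKM at 14.5 dpp. At 24.5 dpp it held 3.53, 2.39 and 4.62 FPKM, below every other library of the series. It was 4.84, 10.1 and 7.29 FPKM at 30.5 dpp, 11.1, 15.1 and 8.50 FPKM at 36.5 dpp and 17.2, 14.9 and 17.3 FPKM at 53.5 dpp. The fall from 14.5 to 24.5 dpp had a ratio of 0.301 (adjusted p of 2.45e-04) and the rise to 30.5 dpp was 2.07-fold (adjusted p of 0.00512). Without replicate 2 of 24.5 dpp the latter was 1.79-fold, and without replicate 2 of 30.5 dpp 1.72-fold. The 53.5 and 8.5 dpp testes overlapped, with a difference of -0.01 (95% interval -0.53 to 0.51) on the log2 scale.

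Hspa5, the HSP70 of the endoplasmic reticulum (ER), had group means between 310.4 and 528 FPKM in the testis. Testes held between 406 and 535 FPKM apart from 308 FPKM in replicate 1 of 14.5 dpp and 340.2, 291 and 299.6 FPKM at 53.5 dpp. No step between neighbouring ages reached 2-fold, and the difference from 8.5 to 53.5 dpp was -0.59 ± 0.17 on the log2 scale, a ratio of 0.643. Under quantile normalization that difference was -1.04, a ratio of 0.482, and was called. Its promoter is shown because it held the ER stress element, CCAAT and CCACG set 9 bases apart, marked in capitals, from 43 to 25 bases before the start. The window is chr3:38452766-38453015 (plus strand) of GRCr8.
Hspa5: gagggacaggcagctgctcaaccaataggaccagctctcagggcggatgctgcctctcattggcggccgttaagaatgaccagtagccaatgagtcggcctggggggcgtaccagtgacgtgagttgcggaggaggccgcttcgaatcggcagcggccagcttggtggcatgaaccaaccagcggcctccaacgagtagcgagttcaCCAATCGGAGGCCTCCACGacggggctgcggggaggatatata
This element was found in 22 of the 33469 promoters (0.0657%), and in no other member. Hsp90aa1, the inducible HSP90, was listed at 0 in all 29 libraries, as were Ppia and Hprt1, genes that every cell uses, and 1973 genes in all. Nothing is said here about its level, and its ratio to Hsp90ab1 could not be given.

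**Figure D2:**
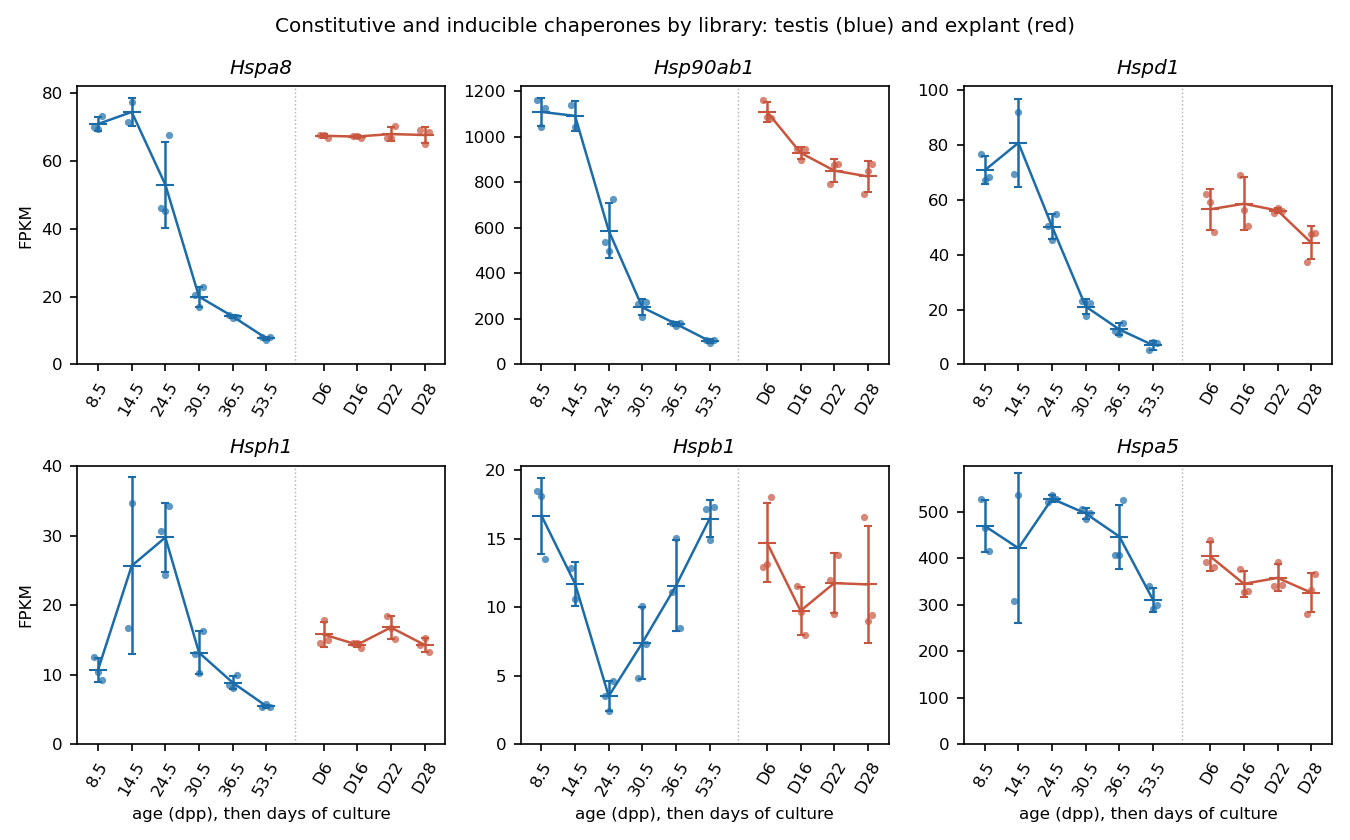
Levels of Hspa8, Hsp90ab1, Hspd1, Hsph1, Hspb1 and Hspa5 in FPKM against testis age in dpp and days of culture. Points are libraries, and lines join means of testes (blue) and explants (red) with SD bars. Hspa8 ends at 7.69 FPKM at 53.5 dpp and stays at 67.6 FPKM at D28.

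Over the whole course from 8.5 to 53.5 dpp, 3 of the 9 members tested rose and 3 fell. Hspa2 rose 91.5-fold, Hspa1l 441-fold and Hspa4l 175-fold by group medians, and Hspa8, Hsp90ab1 and Hspd1 fell to 0.114, 0.0949 and 0.114 times their first level. On the log2(FPKM + 1) scale, which understates changes of low genes, the differences were 6.47 ± 0.13 for Hspa2, 7.61 ± 0.36 for Hspa1l and 6.40 ± 0.19 for Hspa4l. Those of the falling genes were -3.05 ± 0.14, -3.43 ± 0.14 and -3.18 ± 0.17 in the order above, with adjusted p from 1.38e-10 to 6.73e-12. Of all 12531 genes tested, 23.7% rose and 50.2% fell, so the share of members that rose or fell, 6 of 9, was no larger than that of all genes. Hsph1 had a ratio of 0.520, which became 0.493 without replicate 2 of 8.5 dpp and 0.469 without replicate 3. At an adjusted p of at most 0.05 alone, 8 of 9 members passed, against a background of 87.1% of genes. An F test over the 6 ages passed for all 9 members, and for 96.4% of all genes. Between neighbouring ages there were 14 calls of members. They comprised 2 rises to 14.5 dpp (background 8.37% of genes higher and 6.32% lower) and 2 rises and 2 falls to 24.5 dpp (14.2% and 21.4%). To 30.5 dpp there were 2 rises and 4 falls (13.1% and 24.5%), and to 36.5 and 53.5 dpp Hspa1l alone was called (6.08% and 1.40%, then 2.62% and 3.93%). At an adjusted p alone, 3 of 9 members passed to 14.5 dpp (38.6% of all genes), 6 to 24.5 dpp (60.0%), 8 to 30.5 dpp (68.8%), 4 to 36.5 dpp (34.0%) and 7 to 53.5 dpp (38.4%).

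The sum of 4 HSP70 genes, Hspa2, Hspa1l, Hspa8 and Hspa5, was split by gene as a description, without the HSP70 genes outside the members. It was 555 ± 55.9 FPKM at 8.5 dpp, 1556 ± 185 FPKM at 24.5 dpp, 2291 ± 72.3 FPKM at 30.5 dpp and 2027 ± 176 FPKM at 53.5 dpp (SD, n = 3). Hspa5 made up 84.5% ± 1.73 of the sum at 8.5 dpp and 15.3% ± 0.848 at 53.5 dpp. Hspa2 went from 2.45% ± 0.109 to 76.4% ± 0.653 at 30.5 dpp, and then to 63.8% ± 3.52 at 53.5 dpp, when Hspa1l held 20.5% ± 4.34. The ratio of Hspa2 to Hspa8, both in FPKM, was 0.192 ± 0.0165 at 8.5 dpp and 168 ± 8.75 at 53.5 dpp. Reads that also match the 33 pseudogenes of Hspa8 could shift this ratio and the shares of the sum. The ratio of Hspa4l to Hsph1, both HSP110 genes, went from 0.0748 ± 0.0132 to 27.3 ± 1.72. In D28 explants the sum was 414 ± 38.7 FPKM, with 78.6% ± 3.19 from Hspa5 and 4.62% ± 1.29 from Hspa2, and the Hspa2 to Hspa8 ratio was 0.278 ± 0.0468.

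**Figure D3:**
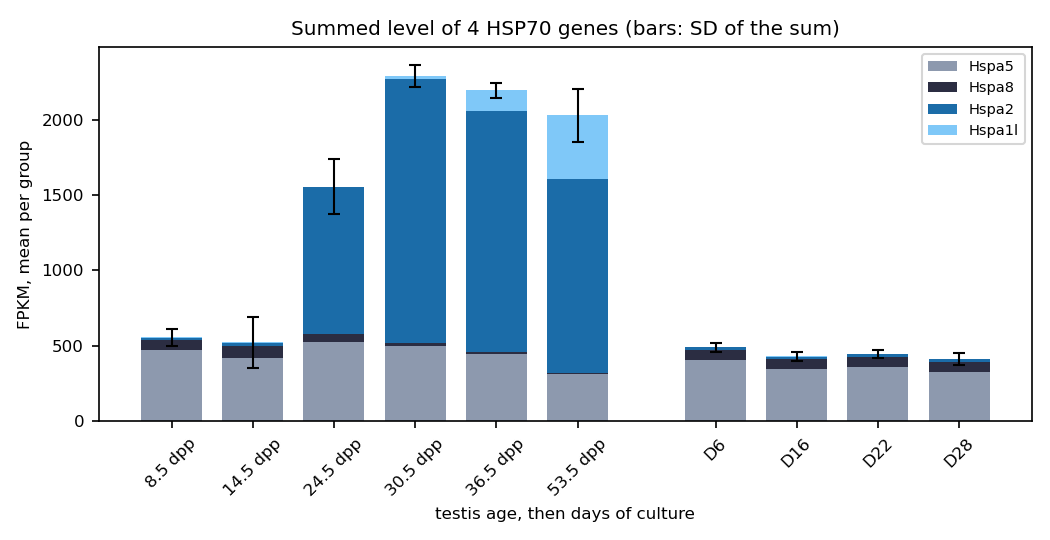
Stacked bars of the mean FPKM of Hspa5, Hspa8, Hspa2 and Hspa1l per group, with the SD of their sum. The sum is 555 FPKM at 8.5 dpp, mostly Hspa5, and 2291 FPKM at 30.5 dpp, mostly Hspa2, and the highest explant mean is 490.5 FPKM, at D6.

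Explants were set against 8.5 dpp testes, the age at which explants were cut. The sources do not tie these testes to the donors of the explants, and time in culture and time since 8.5 dpp cannot be told apart here. In culture Hspa2 was 18.2, 17.1 and 18.9 FPKM at D6, 14.8, 15.3 and 17.8 FPKM at D16, 20.3, 18.8 and 17.2 FPKM at D22 and 23.0, 16.0 and 17.6 FPKM at D28. These levels lay just above those of the 8.5 dpp testes. Hspa1l stayed between 0.602 and 1.93 FPKM in all 12 explant libraries. Hspa4l was 1.41, 1.38 and 1.09 FPKM at D6, 1.72, 1.69 and 1.81 FPKM at D16, 3.37, 2.5 and 2.31 FPKM at D22 and 2.30, 1.96 and 2.11 FPKM at D28. All of these were above the 3 testes of 8.5 dpp. At D28 Hspa4l was 2.53 times the 8.5 dpp level by medians, with a log2 difference of 0.80 ± 0.10 (adjusted p of 1.52e-05), which is under 1 on that scale since the gene is low. It was the only member called at D28 (background 13.6% of genes higher and 10.5% lower). At an adjusted p alone 6 of 9 members passed, against 59.7% of genes. Cell markers also differed between these groups. Spermatocyte sums were between 3.17 and 3.53 FPKM at 8.5 dpp and between 11.3 and 22.9 FPKM at D28, and Sertoli cell sums between 485 and 679 and between 882 and 977 FPKM. Sums were lower at D28 for Leydig cells (126 to 183 against 8.30 to 8.99 FPKM), peritubular cells (645 to 693 against 80.4 to 122) and erythroid cells (284 to 699 against 4.41 to 8.49). The erythroid sum held 2 of 3 listed markers, and 1 of these, Hbb, was listed at 0 in every D28 library. Macrophage sums were 18.6 to 20.0 FPKM at 8.5 dpp and 28.9 to 44.8 at D28. Cd163, 1 of the 5 macrophage markers, went the other way and was listed at 0 in every D28 library. At D6 Leydig cell sums were already between 6.12 and 7.88 FPKM. The part of these cells in the comparisons with 8.5 dpp was not tested.

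At D6 no member was called against 8.5 dpp by limma, with 3 at an adjusted p of at most 0.05 and 4 at an unadjusted p under 0.05 (background 9.90% of genes higher and 6.23% lower, and 48.2% at an adjusted p alone). Hsph1, the inducible HSP110, was 14.6, 17.8 and 15.1 FPKM at D6, above all 8.5 dpp testes, with a log2 difference of 0.52 ± 0.11 and a ratio of 1.45 (adjusted p of 0.00184). It held between 13.3 and 18.5 FPKM at the later times. Hspa8 lay between 65.0 and 70.1 FPKM in every explant, with a difference of -0.07 (95% interval -0.19 to 0.06) between D28 and 8.5 dpp. Hspa5 was between 281 and 439 FPKM in explants and differed by -0.53 ± 0.12 on the log2 scale between D28 and 8.5 dpp, a ratio of 0.712. Hsp90ab1 was 1160, 1087 and 1082 FPKM at D6 and 747, 848 and 880 FPKM at D28. Its D28 values were below all of the D6 values, with a difference of -0.43 ± 0.08 and a ratio of 0.780 (adjusted p of 0.00163). Hspd1 was between 48.3 and 69.2 FPKM up to D22 and 37.4, 47.8 and 48.1 FPKM at D28, a ratio of 0.699 to 8.5 dpp. Hspb1 overlapped the 8.5 dpp testes at D6 and D28, with 16.6, 9.02 and 9.42 FPKM at D28.

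Between D6 and D28 no member was called by limma, with 2 at an adjusted p of at most 0.05 and 4 at an unadjusted p under 0.05 (background 3.12% of genes higher and 2.79% lower, and 26.6% at an adjusted p alone). The 2 were Hspa4l, with a ratio of 1.52, and Hsp90ab1. An F test over the 4 culture times passed for the same genes, with adjusted p of 0.00563 and 0.0132, and for 21.0% of all genes. Against 14.5 dpp, which the study set beside its long cultures, no member was called at D16, D22 or D28 by limma. At D28, 3 members had an adjusted p of at most 0.05 and 4 an unadjusted p under 0.05. At D16 these counts were 2 and 5, and at D22 2 and 3. Those that passed the adjusted p were all lower in explants. They were Hsph1, Hsp90ab1 and Hspd1 at D28, Hspa2 and Hsph1 at D16, and Hsp90ab1 and Hspd1 at D22. An F test over 14.5 dpp, D16, D22 and D28 passed for Hsp90ab1 and Hspd1, with adjusted p of 0.0397 and 0.0198, and for 33.6% of all genes. The background was 6.87% of genes higher and 6.14% lower at D16, 7.76% and 5.99% at D22, and 8.40% and 6.88% at D28. At an adjusted p alone it was 33.5%, 36.3% and 41.1%. The testes of 14.5 dpp were apart in Hsph1, Hspa4l and Hspa5, and leaving out either left 1 testis, assumed to vary as the explants do. Without replicate 1, Hsph1 was called lower at all 3 times, with log2 differences of -1.22, -1.01 and -1.22, and Hspa4l at D16, with -0.88. Without replicate 2, Hsph1 was at -0.21, 0.0061 and -0.21 and Hspa4l at D16 at -0.082, with no call.

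Explants were next set against testes of the same age. At D6 against 14.5 dpp no member was called by limma, with 0 at an adjusted p of at most 0.05 and 3 at an unadjusted p under 0.05 (background 5.57% of genes higher and 2.37% lower, and 15.5% at an adjusted p alone). This depended on which testis of 14.5 dpp was used. Without replicate 1, Hspa4l and Hsph1 were called lower in explants, at -1.14 and -1.09 on the log2 scale (adjusted p of 0.0242 and 0.0309), and without replicate 2 they were at -0.34 and -0.078 (0.224 and 0.792). Each of these fits sets 3 explant libraries against 1 testis, which is assumed to vary as the explants do. Hspa4l stood at 0.466 times the testis level with both testes, and was called lower (adjusted p of 0.00448) when all 10 groups shared 1 fit. At D16 against 24.5 dpp, Hspa2, Hspa4l and Hsph1 were lower and Hspb1 was higher (background 25.3% higher and 18.3% lower, and 72.4% at an adjusted p alone, which 6 of 9 members passed). Hspa2 stood at 0.0146 times the testis level and Hspa4l at 0.0256 times. Hspb1 was 2.75 times the testis level, against the dip at 24.5 dpp. Hsph1 stood at 0.473 times, or 0.527 times without replicate 3 of 24.5 dpp, which is short of 2-fold. At D22 against 30.5 dpp, Hspa2, Hspa4l and Hspa1l were lower, at 0.0109, 0.0260 and 0.0586 times. Hspa8, Hsp90ab1 and Hspd1 were higher, at 3.27, 3.31 and 2.49 times (background 42.1% higher and 22.9% lower). Hsph1 stood at 1.29 times and was not called. At an adjusted p alone 8 of 9 members passed, against 84.9% of genes.

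At D28 against 36.5 dpp the same 3 germ-cell forms were lower and the same 3 general forms higher. Hspa2 differed by -6.35 ± 0.14 on the log2 scale (adjusted p of 2.42e-08), Hspa1l -5.86 ± 0.17 (9.02e-08) and Hspa4l -5.06 ± 0.10 (1.44e-08). Hspa8 was 2.18 ± 0.09 higher (4.97e-07), Hsp90ab1 2.21 ± 0.11 (9.39e-07) and Hspd1 1.73 ± 0.16 (2.63e-05). All of these 6 genes were called, in a comparison where 46.7% of all genes were called higher and 23.6% lower. Their groups did not overlap, but how many of all genes did not overlap was not counted. At an adjusted p alone, 86.2% of all genes and 8 of 9 members passed, and the median gene was 0.64 higher in explants. Hspa5 and Hsph1 passed the adjusted p but not 2-fold, with differences of -0.45 (95% interval -0.81 to -0.09) and 0.64 (0.37 to 0.90). For Hspb1 the difference was -0.01 (-0.65 to 0.63). Marker sums of most cell types moved with these results. From 36.5 dpp to D28, spermatocyte sums went from between 1182 and 1424 to between 11.3 and 22.9 FPKM, spermatid sums from between 3429 and 4685 to between 5.94 and 7.75 FPKM, and Leydig cell sums from between 174 and 287 to between 8.30 and 8.99 FPKM. Sums were higher in explants for Sertoli cells (82.6 to 108 against 882 to 977 FPKM), spermatogonia (14.7 to 20.7 against 99.5 to 123), endothelium (2.39 to 5.12 against 46.9 to 71.1) and macrophages (14.5 to 18.0 against 28.9 to 44.8). Those of peritubular cells overlapped, and erythroid sums were 20.3 to 35.0 FPKM in testes and 4.41 to 8.49 in explants. Within the macrophage sum, Cd163, 1 of the 5 markers, was listed at 0 in every D28 library but not in every 36.5 dpp testis. The spermatogonia sum held 4 of 5 listed markers and the erythroid sum 2 of 3, since the others were not matched. The part of these cell types in the results was not tested.

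**Figure D4:**
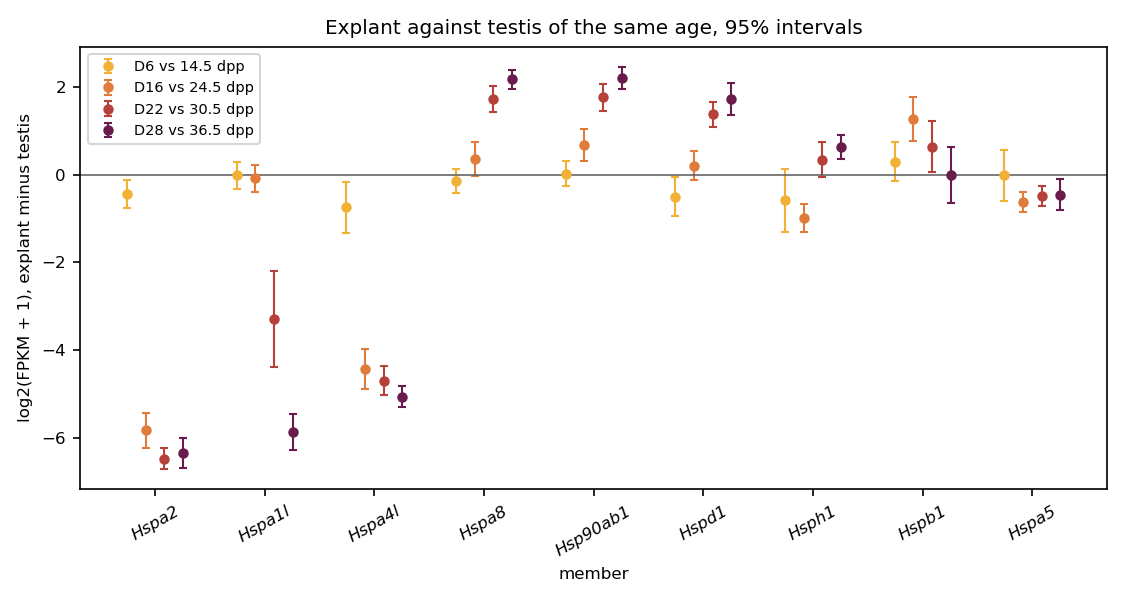
Explant minus testis of the same age on the log2(FPKM + 1) scale for 9 members, with 95% intervals, in the 4 comparisons from D6 to D28. At D28, Hspa2 lies at -6.35 and Hspa8 at 2.18, and the interval of Hspb1 includes 0.

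The change over the same 22 days was compared directly, as D28 minus D6 in culture less 36.5 minus 14.5 dpp in the testis. It differed for 7 of 9 members, at an adjusted p of at most 0.05 and a difference of at least 1 on the log2 scale (background 38.0% of genes higher and 19.0% lower, and 77.8% at an adjusted p alone). The change was smaller in culture for Hspa2, at -5.91 ± 0.21, Hspa1l, at -5.86 ± 0.46, and Hspa4l, at -4.32 ± 0.27. It was above that in the testis for Hspa8, at 2.32 ± 0.18, Hsp90ab1, at 2.18 ± 0.18, Hspd1, at 2.23 ± 0.23, and Hsph1, at 1.22 ± 0.30. The call of Hsph1 rested on replicate 2 of 14.5 dpp, without which 1 testis of that age was left and the value was 0.71, and under quantile normalization it was 0.83. The median over all genes was 0.61. For Hspa5 the difference was -0.44 (95% interval -0.92 to 0.04) and for Hspb1 -0.30 (-1.13 to 0.53).

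The genes most like each member over the 29 libraries, by Pearson's r of log2(FPKM + 1) among 12761 others, were listed as a description, since libraries share an age or culture time. Hspa2 was nearest to Ybx2, Samd15 and Spag6l (r of 0.998 each). Hspa1l was nearest to Lrrc74a, Prm1 and Ubqlnl, at r of 0.998, 0.998 and 0.997, and Hspa4l to Tsga10, Brdt and Tsbp1, at 0.995, 0.995 and 0.994. Ybx2 encodes an RNA-binding protein of germ cells, Prm1 a protamine of spermatids and Brdt a bromodomain protein of spermatocytes. Hspa8 was nearest to Tm9sf1 (0.996), Hsp90ab1 to Enc1 (0.995) and Hspd1 to Pms1 (0.988). Hspa5 was nearest to Hsp90b1, the HSP90 of the same compartment, at 0.873, Hsph1 to Zmym6 at 0.950 and Hspb1 to Rgs3 at 0.926. Between members, r was 0.991 for Hspa2 and Hspa4l, 0.755 for Hspa2 and Hspa1l, 0.990 for Hspa8 and Hsp90ab1 and -0.975 for Hspa1l and Hspa8. With Hspb1, r ran from -0.59 for Hsph1 to 0.24 for Hspa1l.

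The stress response has other genes by which the members can be read. Hspa1b, a stress-inducible HSP70, was 7.66, 6.67 and 6.73 FPKM at 8.5 dpp, 8.48, 8.70 and 12.4 FPKM at D6 and 28.8, 28.9 and 17.8 FPKM at 53.5 dpp. It rose 4.28-fold from 8.5 to 53.5 dpp (adjusted p of 7.43e-07) and was 0.42 ± 0.14 higher on the log2 scale at D6 than at 8.5 dpp, short of 2-fold. In the same testes of 53.5 dpp, in the same order, Hspa1l held 483, 482 and 289 FPKM. How reads were divided between Hspa1b, Hspa1a and Hspa1l was not tested, so the rise of Hspa1b could hold reads of Hspa1l. At D16 Hspa1b was 6.10, 5.41 and 5.52 FPKM, below every 8.5 dpp testis, and at D28 11.8, 8.32 and 8.21 FPKM, above them. Hspa1a lay between 1.01 and 1.65 FPKM in explants, and between 1.47 and 1.69 FPKM at 8.5 dpp. Bag3, a co-chaperone that feeds clients to autophagy, was 4.22, 4.66 and 4.09 FPKM at 8.5 dpp and 9.0, 7.66 and 12.5 FPKM at D6, a 2.13-fold rise (adjusted p of 3.57e-04). In the testis it reached 51.1, 61.8 and 86.9 FPKM at 53.5 dpp. Dnajb1, a J protein induced by heat, was between 67.6 and 81.1 FPKM in all explants and rose from 79.7 to 305 FPKM in the mean from 8.5 to 53.5 dpp. Hsf1, the factor of the heat response, was 1.5 times its 8.5 dpp level at D6 (adjusted p of 0.0017), and Hsf2 stayed between 15.0 and 36.4 FPKM throughout. Against 14.5 dpp, Bag3, Hspa1b and Hsf1 were not called at D6 by limma. Nor was any other of the 22 co-chaperones, 8 HSP70 and HSP110 genes outside the members and 4 heat shock factors tested. The background was 5.57% of genes higher and 2.37% lower. At an adjusted p alone, 2 co-chaperones were higher and 1 lower, with 15.5% of all genes passing. From 8.5 to 14.5 dpp in the testis, 4 co-chaperones rose and 0 fell (background 8.37% and 6.32%).

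Of 116 other chaperone genes in the table, 111 were tested from 8.5 to 53.5 dpp, and 37 rose and 34 fell, where 23.7% of all genes rose and 50.2% fell. Their median difference was 0.00, against -0.74 for all genes. Among J proteins 23 of 42 rose and 7 fell, with a median of 1.31. Dnajb8 went from a mean of 0.135 to 719 FPKM and Dnajb7 from 0.167 to 282 FPKM. Among small heat shock proteins 3 of 9 rose and 4 fell. Odf1, a protein of the sperm tail's outer dense fibres, went from 0.922 to 5181 FPKM and Hspb9 from 1.35 to 3051 FPKM, above any member at that age, whereas Hspb2 and Cryab fell. ER chaperones parted as well, with 5 of 14 higher and 8 lower. Clgn, which folds sperm surface proteins, reached 197 FPKM and Pdilt 146 FPKM, and Serpinh1, which folds collagen, fell from 443 to 7.67 FPKM. Of the other lists, 1 of 8 HSP70 and HSP110 genes rose and 4 fell, 4 of 22 co-chaperones rose and 8 fell, 1 of 9 TRiC subunits rose and 1 fell, 2 of 3 HSP90 and chaperonin 10 genes fell, and none of Hsf1, Hsf2, Hsbp1 and Hsf2bp was called by limma. Of those last 4 genes 1 had an adjusted p of at most 0.05 and 1 an unadjusted p under 0.05, in each case Hsf2bp. Cct6b, the TRiC subunit that rose, was listed at 0 in every 8.5 dpp testis and every explant.

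At D28 against 36.5 dpp, 21 of 108 other chaperone genes were higher in explants and 33 lower, where 46.7% of all genes were higher and 23.6% lower. Their median was -0.28 against 0.64 for all genes. J proteins held 20 of the lower calls and 5 of the higher ones, and their median was -1.01. Dnajb8 was at 0.187 against 196 FPKM and Dnajc5b was listed at 0 in all explants against 132 FPKM. Odf1 and Hspb9 differed by -9.42 and -9.09 on the log2 scale. Serpinh1 (3.56), P4hb (2.69), Cryab (2.75) and Dnajc22 (2.81) were higher in explants. Against 8.5 dpp, 9 of 105 were higher at D28 and 10 lower, with 13.6% and 10.5% of all genes called, so that neither share exceeded that of all genes. Clgn stood at 1.61, 2.20 and 1.61 FPKM at D28, against 0, 0.139 and 0.130 FPKM at 8.5 dpp. Dnajb13, a J protein of cilia and flagella, was 4.50 times its first level.

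**Figure D5:**
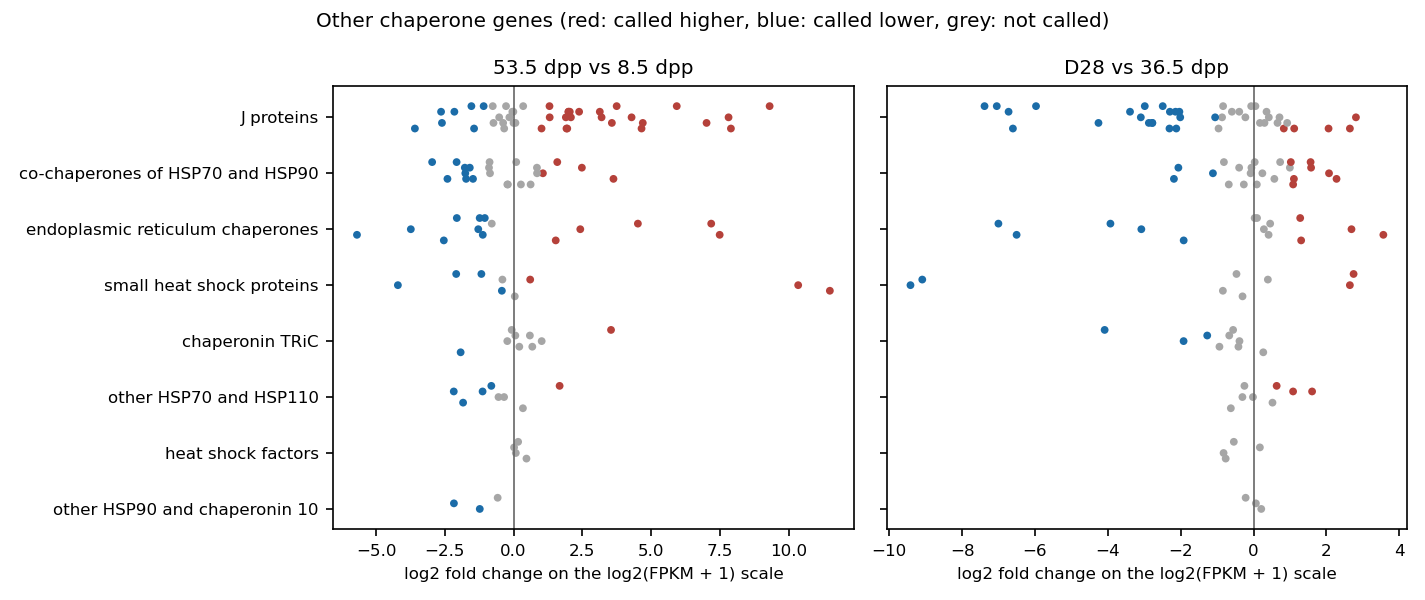
Log2 fold changes of other chaperone genes by list, from 8.5 to 53.5 dpp (left) and between D28 explants and 36.5 dpp testes (right). Each point is a gene, coloured by its call. Among J proteins, 23 points are called higher on the left and 20 lower on the right.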

How the data were processed

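RNA was measured in 17 testes and 12 explant libraries, and 1 further 14.5 dpp library, listed at 0 for all genes, was left out as in the study. Per the labels and the methods of the study, stranded poly(A) libraries were read as 50 bp single reads, aligned with STAR 2.5.2a to rn6 and quantified with StringTie and Ballgown. The authors deposited FPKM per Entrez gene (RPKM in their text). Values were used as log2(FPKM + 1). A gene entered a fit where the median of any of its groups reached 0.5 FPKM, and was tested with limma 3.58.1 (R 4.3.3, lmFit and eBayes), with Benjamini-Hochberg adjustment over all genes tested. Ages in vivo shared 1 fit of 6 groups, 8.5 dpp and explants 1 fit of 5, long cultures and 14.5 dpp 1 fit of 4, and pairs of the same age were fitted alone. The contrast of courses used 8 groups. Tests were tested on simulated data. Depth is unknown, since low values showed no common step between libraries (the most frequent ratio held from 1.38% to 4.14% of low genes), so no counting error is given. Symbols came from a RefSeq table (17172 of 17322 genes matched).

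The members and gene lists were chosen with earlier results of these data known. All members are named. Of the other chaperone genes, up to 2 called higher and 2 lower per list with the largest change are the ones named, together with Hspa1a, Hspa1b, Dnajb1, Bag3, Hsf1 and Hsf2. Hspe1, Hsp90b1 and some values of Clgn by library were added after their values were seen. Alternatives changed the pseudocount, filter, scaling, groups fitted, prior variance, fold threshold and replicate block, and left out each library.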

Additional observations from a re-analysis of the deposited data

Results flagged for a closer look

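For 7 members the change from D6 to D28 in culture differed from the change between 14.5 and 36.5 dpp in the testis, by the limma contrast of both changes. On the log2 scale these differences were -5.91 for Hspa2, -5.86 for Hspa1l and -4.32 for Hspa4l, and 2.32 for Hspa8, 2.18 for Hsp90ab1, 2.23 for Hspd1 and 1.22 for Hsph1. Hsph1 fell under the threshold of 1 without replicate 2 of 14.5 dpp (0.71). Some of the marker sums given in the report, such as those of spermatocytes and Sertoli cells, also differed between these groups. Others did not, since peritubular sums overlapped between D28 and 36.5 dpp. The part of these cell types was not tested.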

How the results depend on the processing

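Replicate numbers were not taken as pairs. The correlations of same-numbered deviations ran from -0.13 to 0.10 between D28 and 36.5 dpp and from -0.13 to 0.22 between D28 and D6. Both were positive for D28 against 14.5 dpp (0.088 and 0.10), and all were negative for D6 against 8.5 dpp (-0.10 to -0.088). Over all genes, a replicate block took the calls for D6 against 14.5 dpp from 630 higher and 268 lower to 292 and 84. With the replicate block every count of members called was unchanged, at 6 from 8.5 to 53.5 dpp, 14 between neighbouring ages, 6 for D28 against 36.5 dpp and 7 for the contrast of courses.

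Calls of members without the fold threshold, at an adjusted p alone, numbered 3 for D6 and 6 for D28 against 8.5 dpp, 2, 2 and 3 for D16, D22 and D28 against 14.5 dpp, 2 for D28 against D6 and 28 between neighbouring ages. With a log2 difference of at least 1 required there were 0 for D28 against 8.5 dpp. With all groups in 1 fit there was 1 for D6 against 14.5 dpp (Hspa4l). Leaving out 1 library gave from 0 to 2 calls for D6 and for D16 against 14.5 dpp, and from 0 to 1 for D22 and for D28. All 4 upper values came without replicate 1 of 14.5 dpp.

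Quantile normalization moved the median gene from -0.74 to -0.35 between 8.5 and 53.5 dpp and from 0.64 to 0.42 between 36.5 dpp and D28. Splits of all calls into higher and lower went from 1647 and 3068 to 1835 and 2130 between 24.5 and 30.5 dpp, and from 328 and 492 to 471 and 92 between 36.5 and 53.5 dpp. Under it Hspa5 was called lower at 53.5 than at 8.5 dpp (-1.04), Hspa2 higher at 30.5 than at 24.5 dpp (1.0) and lower at 53.5 than at 36.5 dpp (-1.07). The cause was not tested.

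Of the log2 differences of members that carry alternatives, 1296 kept direction and side of the threshold, 42 lost and 30 gained an adjusted p of at most 0.05, and 44 changed sign, each from a value that was not called. Under quantile normalization the latter were Hspb1 from 8.5 to 53.5 dpp (0.50), Hspa1l (-0.034) and Hspa5 (0.0083) for D6 against 8.5 dpp, Hsp90ab1 (-0.13) for D6 against 14.5 dpp, and Hspb1 for D22 (0.069) and D28 (0.051) against 14.5 dpp. With the replicate block they were Hspa5 (0.030) for D6 and Hspa1l (0.010) and Hspb1 (0.037) for D22 against 14.5 dpp.

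Leaving out 1 library, Hspb1 ran from -0.15 to 0.068 between 8.5 and 53.5 dpp and from -0.27 to 0.19 for D28 against 36.5 dpp, Hsp90ab1 from -0.041 to 0.035 for D6 against 8.5 dpp, and Hspa1l from -0.18 to 0.016 for D16 against 24.5 dpp. For D6 against 14.5 dpp, Hspa1l ran from -0.070 to 0.040, Hspa5 from -0.41 to 0.39 and Hsp90ab1 from -0.037 to 0.087. Hspa5 ran from -0.64 to 0.16 for D16 against 14.5 dpp. For D22 against 14.5 dpp, Hspa4l ran from -0.44 to 0.35, Hspa5 from -0.58 to 0.21, Hsph1 from -1.01 to 0.0061 and Hspb1 from -0.13 to 0.13. For D28 against 14.5 dpp, Hspa1l ran from -0.10 to 0.14, Hspa4l from -0.69 to 0.11, Hspa5 from -0.72 to 0.075 and Hspb1 from -0.31 to 0.094. For D28 against D6, Hspa2 ran from -0.10 to 0.15, Hspa1l from -0.091 to 0.15 and Hspa8 from -0.012 to 0.032.

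Groups of 3 libraries, and of 2 at 14.5 dpp, limit all tests, and comparisons that share a group are not independent. Levels at 0 in this table can be failed estimates. RNA levels say nothing of protein.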
